A study of Mus musculus with 2 samples.

Results

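*Arg1*, *Chil3*, *Chil4*, *Retnla*, *Ear2* and *Il4ra* were followed through the immune cells of the mouse aortic adventitia, to ask in which cells each gene was found and whether the genes marked the same cells. The 6 genes were taken by symbol from the 55386 features of the tables. All 6 were listed in both libraries, and 5 of them had at least 1 UMI (unique molecular identifier, 1 counted transcript) in each. *Chil4* had 0 UMIs in every cell of both libraries. Single-cell RNA sequencing was carried out on sorted CD45+ cells from *Rank*-Cre *Rosa26*-eYFP mice of about 16 weeks. One library came from 3 untreated animals (steady state) and the other from 2 animals given angiotensin II (AngII) at 1.8 µg per kg per min for 10 days. In this strain, which both groups carry, Cre activity under *Rank* labels the progeny of yolk sac erythro-myeloid progenitors with eYFP and leaves most bone marrow-derived cells unlabelled. Animals were pooled before capture, so each condition is 1 library with no replicate. Effects of AngII, of the library and of depth cannot be told apart. Accordingly no p-value is given, and all intervals are exact 95% intervals that cover counting error only.

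After filtering, 306 of 346 barcodes at steady state and 4198 of 4419 on AngII remained. The 2 libraries shared 0 barcodes. The median cell held 9105 UMIs at steady state and 1092 on AngII, so shares of cells are given after thinning each cell to 1000 UMIs, which kept 303 and 2288 cells. *Ptprc*, which encodes CD45, was detected in 93.8% and 63.6% of cells. Cells were gated by marker genes that included none of the 6 genes, and 303 (99.0%) and 3662 (87.2%) received a class. Of these, 26 and 899 cells led by a single marker, 11 and 468 of them macrophages. Macrophages numbered 143 and 2472. They divided into resident-type cells (126 and 811; *Lyve1*, *Folr2*, *Cbr2*), cells gated by a list headed by *Spp1* (11 and 705) and other macrophages (6 and 956). At steady state the 11 Spp1-list cells held no UMI of *Spp1*, *Inhba*, *Thbs1*, *Gpnmb* or *Vegfa*, passed on *Lpl*, *Hmox1* and *Fabp5*, and were led by *Cxcl9*, *Lyz1*, *Lpl* and *Fn1*. The same list therefore held unlike cells in the 2 libraries. Possible doublets were left in. Of the macrophages, 97 at steady state and 893 on AngII held 2 or more markers of a lineage outside macrophages, monocytes and dendritic cells.

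These genes are the classic read-outs of alternative macrophage activation in the mouse. IL-4 and IL-13 bind receptors that contain the IL-4 receptor alpha chain, the product of *Il4ra*, and activate STAT6, which binds near many target genes. *Arg1* encodes arginase 1, which cleaves arginine to ornithine and urea and competes for arginine with nitric oxide synthase. *Chil3* (Ym1) and its close copy *Chil4* (Ym2) encode secreted chitinase-like lectins without chitinase activity. *Retnla* encodes RELM alpha (FIZZ1), a small secreted cysteine-rich protein. *Ear2* encodes an eosinophil-associated ribonuclease. Each of them has sources or inducers beside IL-4: *Arg1* is also expressed by group 2 innate lymphoid cells (ILC2), and *Chil3* by monocytes and neutrophils.

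In GENCODE coordinates on GRCm38 the 6 protein-coding genes lie on 5 chromosomes. *Retnla* spans chr16:48842551-48844461 (+) and *Ear2* chr14:44102654-44103534 (+). *Arg1* spans chr10:24915221-24927484 (−) and *Il4ra* chr7:125552120-125579474 (+). *Chil3* (chr3:106147554-106167564, −) and *Chil4* (chr3:106201490-106219507, −) are neighbours. Among the last 500 bases of the transcripts, 36 of 410 windows of the read length (8.78%) of *Chil3* also occurred in *Chil4*, and 38 (9.27%) of *Ear2* occurred in other genes, most often *Ear10*. Reads there cannot be assigned to 1 copy, so the levels of *Chil3* and *Ear2* are uncertain to that extent. *Arg1*, *Retnla* and *Il4ra* shared 0 windows.

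RefSeq promoter sequences (GRCm38.p6) were found for 5 of the 6 genes, all but *Arg1*. The stretches of *Retnla* and *Ear2* are shown because these were the genes detected together in single cells. Capitals mark matches, on either strand of the 250 bases before the start, to a STAT6-type motif (TTCNNNNGAA) and a C/EBP-type motif (TTGCNNAA). In the *Retnla* stretch the first run of capitals is the STAT6-type and the second the C/EBP-type match, without overlap, and in the *Ear2* stretch the run is a C/EBP-type match.
*Retnla*, chr16:48842439-48842507 (+): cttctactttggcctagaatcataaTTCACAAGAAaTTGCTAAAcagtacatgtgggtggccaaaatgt
*Ear2*, chr14:44102539-44102596 (+): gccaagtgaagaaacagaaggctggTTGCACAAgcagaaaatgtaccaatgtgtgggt
Of 32851 promoters, 5.85% held the STAT6-type, 9.56% the C/EBP-type and 0.609% both motifs. *Chil4* held a C/EBP-type match, and *Chil3* and *Il4ra* neither motif in this window. A match describes the letters and is no binding site.

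*Retnla* was found mainly in macrophages and, at steady state, also in cells gated as a type of dendritic cell. Macrophages held 93.0% of its UMIs at steady state and 89.2% on AngII. Its level, the UMIs of the gene scaled to the total UMIs of the cells and given in CPM, was 14284 CPM (14113 to 14456) in all steady-state macrophages and 1604 CPM (1579 to 1630) on AngII. At steady state it stood at 9340 CPM in resident-type, 35230 CPM in Spp1-list and 43288 CPM in other macrophages, the last 2 resting on 11 and 6 cells. Cells gated as type 2 conventional dendritic cells (cDC2) were led by *Cd209a* and by cell-cycle genes such as *Top2a*. They reached 3376 CPM, with *Retnla* in 9 of 14 cells (4 of 14 after thinning) and 563 of 1092 UMIs in 1 cell. These cDC2 held a median of 4 macrophage markers, with or without *Retnla*, against 2 and 1 in type 1 conventional dendritic cells. The study placed steady-state cells with *Retnla*, *Ear2* and *Mki67* in a macrophage cluster. Whether the gated cDC2 include such macrophages was not tested. Monocytes stood between 15.2 and 18.5 CPM. On AngII, resident-type (1804 CPM, 1762 to 1846) and Spp1-list macrophages (1726 CPM, 1684 to 1769) lay close together, above other macrophages (937 CPM, 894 to 982), while cDC2 held 43.9 CPM.

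Single cells differed widely in *Retnla*. At steady state 90 of 143 macrophages had a UMI and 42 exceeded 10000 CPM, up to 95321 CPM in the highest cell, and 9 cells held 50% of the UMIs. On AngII 643 of 2472 macrophages had a UMI, 97 exceeded 10000 CPM and 11 cells held 50% of the UMIs. After thinning, *Retnla* was detected in 71 of 141 macrophages (50.4%, 41.8 to 58.9) at steady state and in 294 of 1331 (22.1%, 19.9 to 24.4) on AngII. The share in lymphocytes, which should lack the gene, was 0 of 37 T cells and 4 of 50 B cells (8.00%) at steady state, and 6 of 145 T cells (4.14%) and 2 of 64 B cells (3.12%) on AngII, all at 1000 UMIs. A count of 0 of 37, 50, 64 or 145 cells allows a share of up to 8.11%, 6.0%, 4.69% or 2.07% if the limit is set at 3 cells, and the exact 95% intervals reach 9.49%, 7.11%, 5.6% and 2.51%. Before thinning, median depths were 8087 and 5591 UMIs in T and B cells at steady state and 1248.5 and 3872 UMIs on AngII. Single cells weighed in these too, as 65 of 79 *Retnla* UMIs in steady-state B cells and 222 of 241 in AngII T cells came from 1 cell each.

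**Figure D1:**
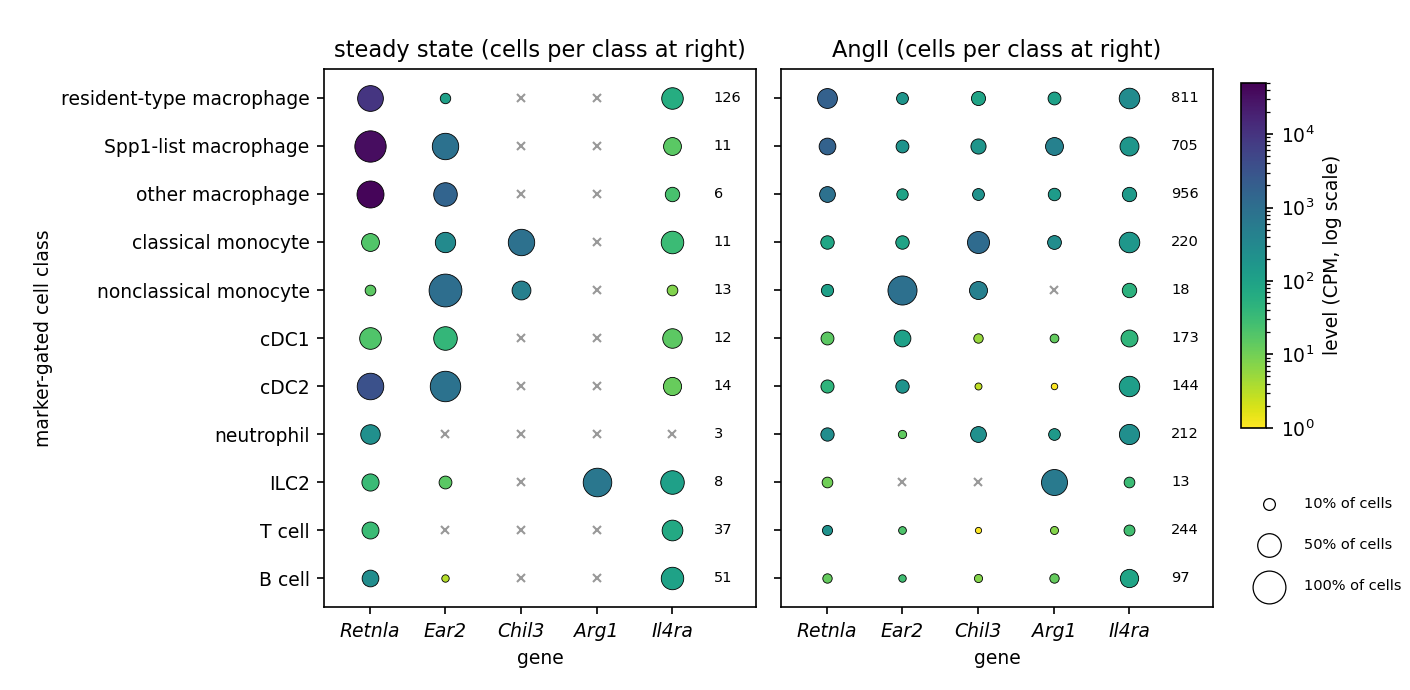
Level (CPM, colour on a log scale) and percent of cells with at least 1 UMI at full depth (size) of 5 genes in 11 marker-gated classes of each library, where a cross marks 0 UMIs and the number at the right gives the cells. *Retnla* is strongest in macrophages, *Chil3* in classical monocytes, *Ear2* in nonclassical monocytes (by level on AngII), and *Arg1* is seen only in ILC2 at steady state.

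*Ear2* had its own order of classes. At steady state the highest levels were in other macrophages (1566 CPM, 1311 to 1857, 6 cells) and nonclassical monocytes (1029 CPM, 863 to 1218), where all 13 cells had a UMI. Spp1-list macrophages (893 CPM, 779 to 1019) and cDC2 (832 CPM, 735 to 937, 12 of 14 cells) followed, and the intervals of neighbours in this order overlapped below the first. Classical monocytes held 296 CPM and resident-type macrophages 110 CPM. On AngII nonclassical monocytes led with 956 CPM (755 to 1195) in 14 of 18 cells. Spp1-list macrophages (192 CPM), cDC2 (189 CPM) and resident-type macrophages (177 CPM) had overlapping intervals, above type 1 conventional dendritic cells (cDC1, 105 CPM). After thinning, 11 of 141 macrophages (7.80%) at steady state and 109 of 1331 (8.19%) on AngII had a UMI, against 0 of 37 T cells and 0 of 50 B cells at steady state and 1 of 145 T cells and 1 of 64 B cells on AngII. In 4 macrophages lay 50% of the steady-state *Ear2* UMIs of macrophages.

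*Chil3* was highest in monocytes in both libraries. Classical monocytes, gated by *Ly6c2* and *Plac8*, held 907 CPM (766 to 1066; 7 of 11 cells) at steady state and 1190 CPM (1130 to 1253; 95 of 220 cells) on AngII. Nonclassical monocytes held 465 and 460 CPM, and in each library 1 cell carried over 50% of these UMIs. No steady-state macrophage had a UMI of *Chil3*, which allows a level of up to 1.60 CPM. On AngII *Chil3* appeared at 224 CPM in neutrophils, 212 CPM in other, 178 CPM in Spp1-list and 88.6 CPM in resident-type macrophages. Macrophages then held 39.4% of its UMIs and classical monocytes 41.4%. The thinned share was 132 of 1331 macrophages (9.92%, 8.36 to 11.7), against 0 of 64 B cells and 0 of 145 T cells.

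*Arg1* was found at steady state in ILC2 only. These cells, led by *Gata3*, *Klrg1* and *Calca*, held all 43 UMIs, at 691 CPM (500 to 931) in 6 of 8 cells. In 143 macrophages the count was 0, again a limit of 1.60 CPM. On AngII the 13 ILC2 held 592 CPM (447 to 769) in 8 cells, and macrophages 246 CPM (237 to 257) in 406 of 2472 cells. In ILC2 on AngII 30 of 56 *Arg1* UMIs lay in 1 cell. Leaving out cells with markers of another lineage lowered the AngII value of ILC2 to 37.9 CPM. Spp1-list macrophages led the myeloid classes with 455 CPM (433 to 477), followed by classical monocytes (258 CPM, 230 to 288). Neutrophils (150 CPM, 121 to 183) and other macrophages (138 CPM, 121 to 156) did not differ beyond counting error, and resident-type macrophages held 105 CPM (95.3 to 116). The thinned share was 171 of 1331 macrophages (12.8%, 11.1 to 14.8), against 2 of 64 B cells (3.12%) and 0 of 145 T cells. Spp1-list macrophages alone held 52.3% of the *Arg1* UMIs on AngII.

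*Il4ra*, the receptor, was spread over lymphoid and myeloid cells. At steady state it was 113 CPM in ILC2 (45.2 to 232), 98.9 CPM in B cells (66.7 to 141), 73.5 CPM in T cells (46.6 to 110) and 62.2 CPM in resident-type macrophages (50.4 to 76.0), with overlapping intervals. On AngII resident-type macrophages (277 CPM, 261 to 294) and neutrophils (239 CPM, 202 to 280) were highest. Spp1-list macrophages (168 CPM, 155 to 182), classical monocytes (165 CPM) and other macrophages (142 CPM, 125 to 160) came next, and T cells were at 26.3 CPM. The thinned share of macrophages was 6 of 141 (4.26%) at steady state and 206 of 1331 (15.5%) on AngII.

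**Figure D2:**
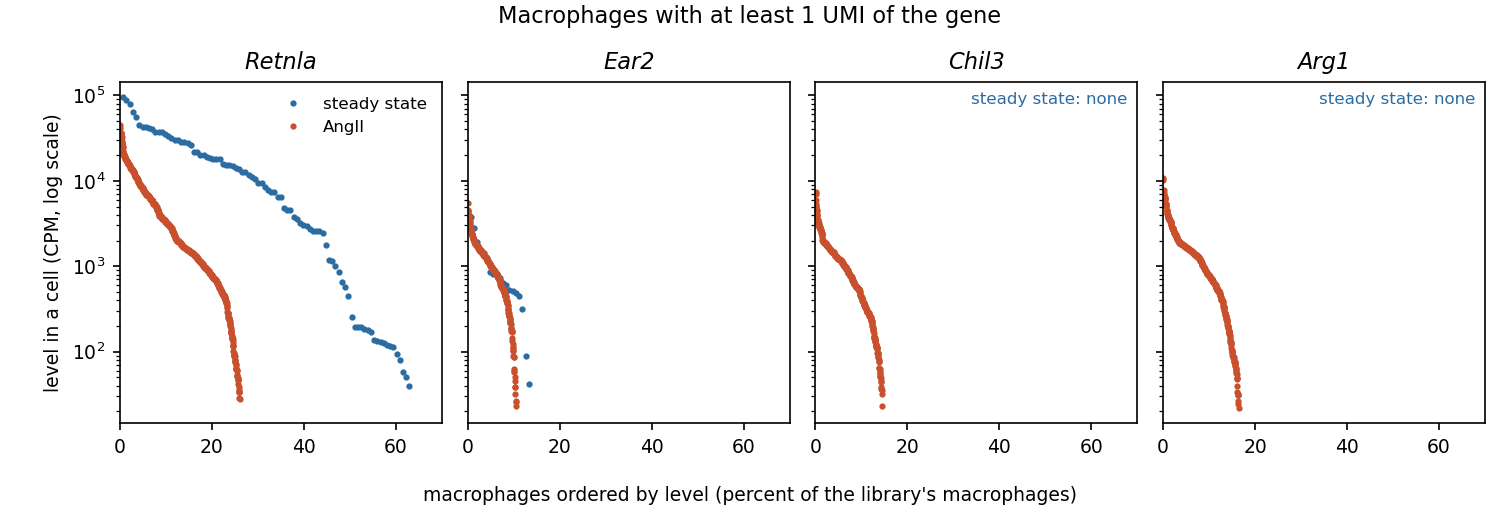
Level in each macrophage with at least 1 UMI of the gene (CPM, log scale), ordered from high to low along the percent of the library's macrophages, at steady state (blue) and on AngII (orange). The *Retnla* curve of steady state lies above that of AngII over its whole length, the *Ear2* curves lie together, and *Chil3* and *Arg1* have no steady-state cell.

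Between the libraries, the 4 effector genes did not move together. Over all macrophages *Retnla* was 8.90-fold lower on AngII (8.73 to 9.08), and *Ear2* was 1.67-fold lower (1.51 to 1.84). *Il4ra* was 3.83-fold higher (3.14 to 4.72). *Arg1* was at least 154-fold and *Chil3* at least 92.1-fold higher, both against a steady-state count of 0 set to the limit of 3 UMIs. Without cells that held markers of another lineage these bounds were 50.0 and 18.3. With Leiden clusters in place of the gate the steady-state counts were above 0, with ratios of 142 (55.5 to 522) for *Arg1* and 40.2 (24.7 to 70.4) for *Chil3*. These steady-state UMIs lay in cells that the gate had called ILC2 (*Arg1*), or monocytes or no class (*Chil3*). *Ear2* had a ratio of 1.17 (0.959 to 1.44), an interval that includes 1, when cells were gated by summed marker UMIs. Of all 9911 genes with at least 50 macrophage UMIs, 6.84% were 2-fold or more higher and 6.37% 2-fold or more lower, with a median log2 ratio of -0.01. Of the 5 genes of the set that were measured, 3 were 2-fold or more higher and 1 lower. Within the ranking of all ratios *Arg1* and *Chil3* stood at percentiles 99.96 and 99.93, *Il4ra* at 97.6, *Ear2* at 11.1 and *Retnla* at 0.343.

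The share of the macrophage subclasses differed between the libraries, so the ratio was also taken within them. Resident-type cells were not alike in the 2 libraries either. *Lyve1* had a UMI in 107 of 126 at steady state (1178 CPM) and in 261 of 811 on AngII (314 CPM). *Timd4* stood at 123 and 16.1 CPM, and 99 and 203 of these cells were *Yfp*+. Ratios within this class therefore do not compare like cells. In resident-type macrophages *Retnla* was 5.18-fold lower on AngII (5.03 to 5.33), *Il4ra* 4.46-fold higher (3.62 to 5.55), *Arg1* at least 54.1-fold and *Chil3* at least 45.6-fold higher. There 5.4% of 8370 genes were 2-fold or more higher and 5.08% lower. *Ear2* was 1.61-fold higher on AngII in resident-type macrophages (1.36 to 1.92) and 4.65-fold lower in the Spp1-list cells (3.98 to 5.42). The Spp1 list held unlike cells in the 2 libraries, so its ratio does not compare like cells. At steady state 2 of its 11 cells held 50% of their *Ear2* UMIs. The resident-type values rested on few cells. At steady state 9 of 126 had an *Ear2* UMI, and on AngII 4 of 811 held 50% of the UMIs. Their thinned shares, 4.0% (1.31 to 9.09) and 7.41% (5.39 to 9.88), had overlapping intervals. The *Ear2* value over all macrophages also rested on few cells. Without the 10 cells with the most *Ear2* UMIs in each library, that is 10 of 143 and 10 of 2472, *Ear2* was 1.72-fold higher on AngII (1.37 to 2.18). The same removal left the *Retnla* ratio at 0.110 against 0.112 with all cells.

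Outside macrophages, *Chil3* in classical monocytes was 1.31-fold higher on AngII (1.11 to 1.57), while in nonclassical monocytes its ratio was 0.988 (0.639 to 1.51). *Arg1*, absent from classical monocytes at steady state, was at least 13.9-fold higher there. *Ear2* in nonclassical monocytes had a ratio of 0.929 (0.693 to 1.24) and *Arg1* in ILC2 one of 0.857 (0.566 to 1.31). Both intervals span equal levels. On AngII 30 of the 56 *Arg1* UMIs of ILC2 lay in 1 cell, and the level was lower without cells that held markers of another lineage. In cDC2, *Retnla* was 76.9-fold lower (57.4 to 105) and *Ear2* 4.41-fold lower (3.66 to 5.32) on AngII, with 14 steady-state cells. Cell-cycle genes were among the leading genes of the steady-state cDC2 and not of the AngII ones, so these ratios do not compare like cells. *Retnla* was higher on AngII in classical monocytes (4.45-fold, 1.48 to 21.9, from 3 steady-state UMIs) and nonclassical monocytes (7.33-fold, 1.52 to 69.7, from 2). *Ear2* was 2.68-fold higher (1.43 to 5.69) in cDC1.

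**Figure D3:**
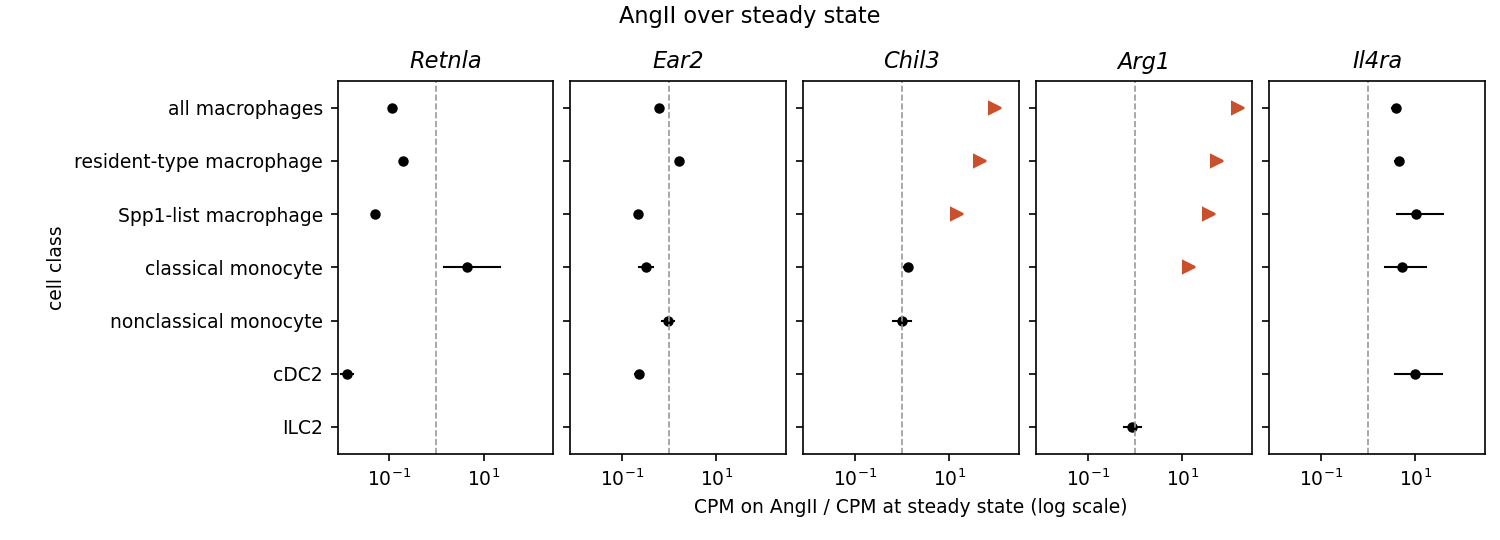
Ratio of the level on AngII to that at steady state (log scale) for 5 genes in 7 cell classes, where points are ratios with their exact 95% intervals, orange triangles are lower bounds for genes with 0 UMIs at steady state, and pairs with few UMIs are not drawn. *Retnla* lies left of 1 in every macrophage class and *Il4ra* right of it, whereas *Ear2* lies right of 1 in resident-type macrophages and in no other of the classes drawn.

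Whether the genes marked the same cells was asked in single macrophages at 1000 UMIs each. *Retnla* and *Ear2* did so most clearly. At steady state 10 cells held both genes, 61 only *Retnla*, 1 only *Ear2* and 69 neither, an odds ratio of 11.2 (1.51 to 498), where 1 means that the genes are found together as often as their separate shares give. That interval came to include 1 with detection from 2 UMIs (7.53, 0.877 to 355), and with Leiden clusters the value was 3.64 (1.04 to 16.2). On AngII 74 cells held both, 220 only *Retnla*, 35 only *Ear2* and 1002 neither, an odds ratio of 9.61 (6.17 to 15.2). *Ear2* was thus detected in 25.2% of AngII macrophages with *Retnla* and in 3.38% of those without. Conversely 67.9% of *Ear2*+ and 18.0% of *Ear2*− macrophages had *Retnla*. On AngII the relation held within resident-type (9.36, 4.42 to 21.3), Spp1-list (16.7, 7.23 to 42.2) and other macrophages (7.01, 2.93 to 16.9). Among steady-state resident-type cells the odds ratio was 4.83 (0.461 to 244), an interval that includes 1, and 0 (0 to 50.7) with Leiden clusters. On AngII the share with *Ear2* was 3.38% in cells without *Retnla*, 22.0% in those with 1 to 9 *Retnla* UMIs and 39.6% in those with 10 or more, ranges that were chosen after the values were seen. At steady state it was 1 of 70, 0 of 29 and 10 of 42 cells. With detection from 2 UMIs the AngII odds ratio was 18.8. Most *Retnla*+ cells nevertheless had no *Ear2* UMI at this depth.

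*Arg1* and *Chil3* overlapped less. On AngII 28 macrophages held both, 143 only *Arg1* and 104 only *Chil3*, an odds ratio of 1.99 (1.22 to 3.17). It was 0.961 (0.240 to 2.82) in resident-type, 2.03 (1.01 to 3.95) in Spp1-list and 3.04 (1.01 to 8.20) in other macrophages. Over all macrophages it was 3.23 (1.07 to 8.13) with detection from 2 UMIs. The interval came to include 1 with Leiden clusters (1.44, 0.951 to 2.15) and with summed marker UMIs (2.55, 0.692 to 7.78). In classical monocytes, where both genes were also found, it was 0.96 (0.22 to 3.76), and 2.29 (1.01 to 5.34) without thinning. Intervals that include 1 leave either direction possible.

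Across these 2 pairs, 3 of 4 odds ratios had intervals that include 1. The odds ratio was 0.895 (0.584 to 1.34) for *Arg1* and *Retnla*, 1.14 (0.726 to 1.76) for *Chil3* and *Retnla*, and 0.911 (0.413 to 1.81) for *Chil3* and *Ear2*. For *Arg1* and *Ear2* it was 0.443 (0.171 to 0.969), a value that turned to 1.11 (0.774 to 1.57) without thinning. For the receptor *Il4ra* the intervals included 1 beside 3 genes, with odds ratios of 1.02 (0.695 to 1.47) beside *Retnla*, 0.973 (0.558 to 1.62) beside *Chil3* and 1.25 (0.790 to 1.92) beside *Arg1*. Without thinning, where depth differs between cells, these were 1.42 (1.16 to 1.73), 2.65 (2.09 to 3.36) and 1.93 (1.54 to 2.43). Beside *Ear2* the odds ratio was 0.41 (0.17 to 0.86), and 1.52 (1.15 to 2.01) without thinning. Of 1331 AngII macrophages, 792 had none of *Arg1*, *Chil3*, *Retnla* and *Ear2*, 389 had 1, 135 had 2, 13 had 3 and 2 had all 4.

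**Figure D4:**
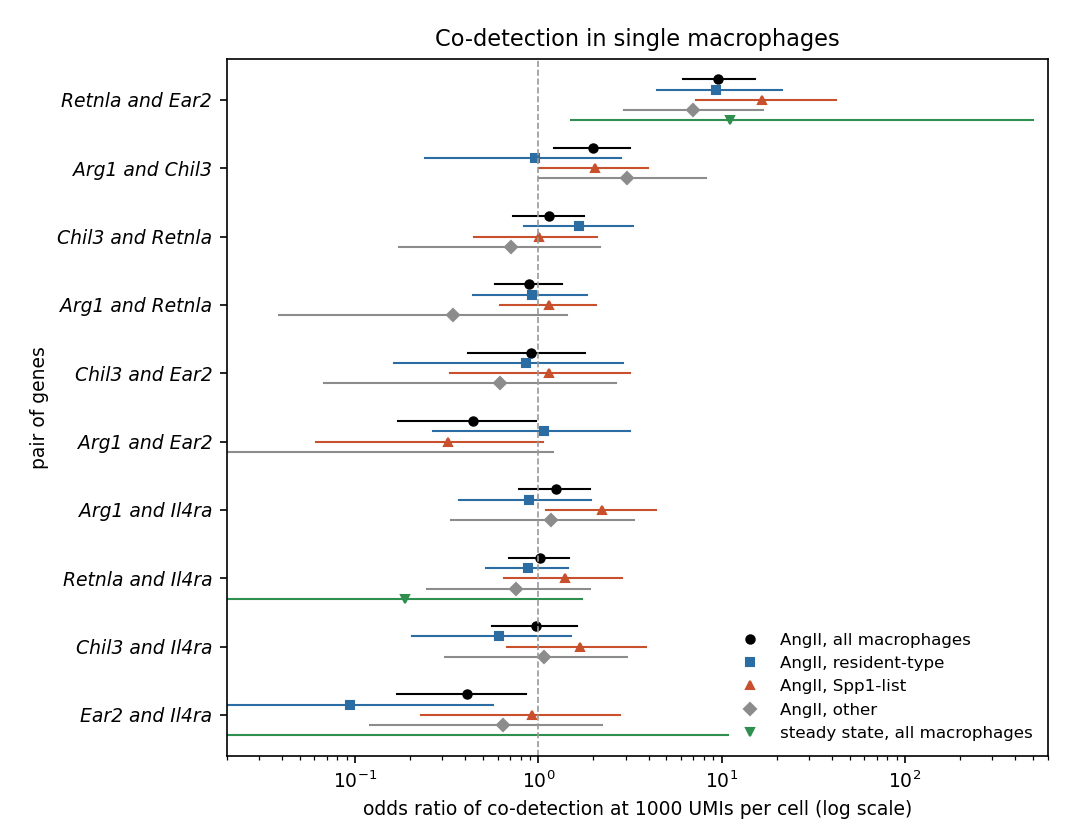
Odds ratio of detecting both genes of a pair in single macrophages thinned to 1000 UMIs (log scale) with exact 95% intervals, for all AngII macrophages, their 3 subclasses and all steady-state macrophages. Lines are cut at the axis ends and those without a marker have an odds ratio of 0, and *Retnla* with *Ear2* lies right of 1 in all 5 rows.

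The cells with and without each gene also differed in other genes, compared here with genes some of which (*Lyz1*, *Mgl2*, *Spp1*, *Lyve1*) were chosen after their values were seen. On AngII, *Retnla*+ macrophages held 561 CPM of *Lyz1*, a lysozyme gene, against 98.4 CPM in *Retnla*− ones, a ratio of 5.71 (4.43 to 7.38). *Ear2*+ cells had a *Lyz1* ratio of 3.53 (2.63 to 4.70). *Mgl2*, which encodes a galactose-binding lectin of alternatively activated macrophages, was 2.49-fold higher with *Retnla* and 2.38-fold higher with *Ear2*, but its ratio was 0.378 (0.242 to 0.565) with *Arg1*. *Spp1*, the osteopontin gene, went the other way. Its ratio was 4.34 (3.83 to 4.91) in *Arg1*+ macrophages, at 2439 against 562 CPM, and it was 0.372 (0.300 to 0.457) with *Retnla* and 0.257 (0.164 to 0.385) with *Ear2*. *Chil3*+ macrophages carried 1.70-fold (1.53 to 1.88) more UMIs of the classical monocyte list, and *Il4ra*+ macrophages 1.65-fold (1.52 to 1.80) more of the resident list. At steady state the *Lyz1* ratio beside *Retnla* was 26.1 (9.91 to 97.7). *Retnla* itself takes up many of the 1000 UMIs of a high cell, and the summed macrophage list was 0.722-fold in *Retnla*+ against *Retnla*− cells on AngII. The part of this share in the lower values was not tested.

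A UMI of *Yfp* was found in 108 of 143 macrophages (75.5%) at steady state and in 345 of 2472 (14.0%) on AngII. *Yfp*+ cells were deeper, with a median of 5328 against 984 UMIs on AngII. Detection of *Yfp* depends on depth, so *Yfp*− cells include labelled cells that were missed. On AngII *Chil3* was 5.53-fold lower (4.62 to 6.66) in *Yfp*+ than in *Yfp*− macrophages, at 38.1 against 211 CPM. The ratio of *Yfp*+ to *Yfp*− cells was 0.20 (0.15 to 0.26) in resident-type, 0.229 (0.163 to 0.315) in Spp1-list and 0.178 (0.112 to 0.272) in other macrophages. At 1000 UMIs per cell, *Chil3* was found in 10 of 288 *Yfp*+ (3.47%, 1.68 to 6.29) and 122 of 1043 *Yfp*− macrophages (11.7%, 9.81 to 13.8).

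For the other genes the direction varied with the subclass or the measure. *Retnla* was 1.54-fold higher in *Yfp*+ AngII macrophages (1.49 to 1.59), yet the thinned shares were 21.2% and 22.3%. *Arg1* had a ratio of 0.698 (0.638 to 0.764) over all macrophages. It was 1.52 (1.24 to 1.87) in resident-type, 1.0 (0.89 to 1.12) in Spp1-list and 0.340 (0.220 to 0.508) in other macrophages. The direction of its level thus depended on the subclass, but the thinned shares did not show the higher value in resident-type cells. There 17 of 189 *Yfp*+ and 34 of 378 *Yfp*− cells (8.99% each) had *Arg1*. The shares were 17.6% and 20.8% in Spp1-list and 4.17% and 10.3% in other macrophages, with overlapping intervals. *Ear2* had a ratio of 0.894 (0.804 to 0.993) over all macrophages and 0.612 after thinning. Within the subclasses it was 0.77 (0.67 to 0.90) in resident-type, 1.20 (1.01 to 1.43) in Spp1-list and 0.307 (0.174 to 0.507) in other macrophages. *Il4ra* had a ratio of 1.25 (1.14 to 1.37) over all macrophages, and below 1 in Spp1-list macrophages (0.754, 0.608 to 0.928). It was 1.23 (1.09 to 1.39) in resident-type and 0.868 (0.641 to 1.16) in other macrophages. The thinned shares of *Yfp*+ and *Yfp*− cells with *Il4ra* went the opposite way in Spp1-list macrophages, at 17.6% and 10.7%. They were 24.9% and 16.4% in resident-type and 4.17% and 16.0% in other macrophages. Within each subclass the intervals of these shares overlapped. At steady state *Retnla* was 0.675-fold in *Yfp*+ against *Yfp*− macrophages overall (0.942-fold after thinning) and 1.74-fold (1.63 to 1.86) among resident-type cells. The thinned shares of resident-type cells with *Retnla* were 46.5% and 46.2%. All 169 *Ear2* UMIs of steady-state resident-type macrophages lay in *Yfp*+ cells (99 cells, against 27 *Yfp*− ones). Only 9 cells held these UMIs, and 3 of them held 50%. The *Yfp*− cells were also shallower, with a median of 5215 against 11140 UMIs.

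**Figure D5:**
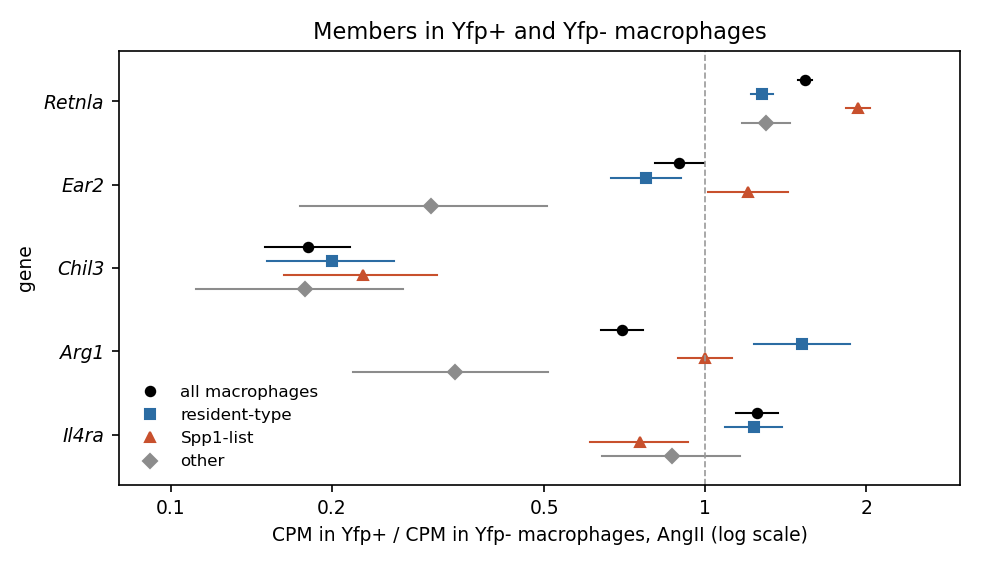
Ratio of the level in *Yfp*+ to that in *Yfp*− macrophages of the AngII library (log scale) with exact 95% intervals, for all macrophages and 3 subclasses. *Chil3* lies between 0.178 and 0.229 in all 4 groups, whereas *Arg1* ranges from 0.340 to 1.52.

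Of 62 other genes of the pathway, 40 had at least 50 UMIs in macrophages, and 10 were 2-fold or more higher and 10 lower on AngII, beside 6.84% and 6.37% of all genes. With a minimum of 200 UMIs, and likewise after thinning, 4 were higher, beside 5.01% and 12.9% of all genes. At 200 UMIs these were 2 of 11 measured genes of alternative activation and 2 of 5 arginine genes. After thinning they were 3 of 9 genes of alternative activation and 1 of 5 transcription factor genes. Among the receptor and signalling genes 8 of 9 were measured, 2 were higher and 0 lower, and 0 were higher under either of these settings. *Jak3*, a kinase of the common gamma chain, was 3.22-fold higher (1.65 to 7.19) and *Cish*, a feedback inhibitor of STAT signalling, 6.91-fold higher (1.84 to 58.2, from 2 steady-state UMIs). *Stat6* had a ratio of 0.92 (0.77 to 1.11) and *Il13ra1*, the partner chain for IL-13, of 1.31 (1.04 to 1.66). The 9 transcription factor genes were all measured, and 3 were lower. These were *Klf4* (ratio 0.305, 0.290 to 0.321), *Egr2* (0.320, 0.291 to 0.352) and *Irf4* (0.392, 0.303 to 0.511).

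Of the 18 other genes of alternative activation, 14 were measured. Of these 4 were higher and 6 lower, with a median log2 ratio of -0.64. Of all genes 6.84% were higher and 6.37% lower. *Tgm2*, a transglutaminase, was 13.2-fold higher (6.93 to 29.1), *Ccl17*, a chemokine, 5.77-fold (2.20 to 21.5), *Il1rn*, the interleukin 1 receptor antagonist, 2.11-fold (1.70 to 2.65) and *Rnase2a* 11.8-fold (2.05 to 475, from 1 steady-state UMI). The lower genes were the chemokine genes *Ccl22* (ratio 0.069) and *Ccl24* (0.172), the lectin genes *Mgl2* (0.339) and *Clec10a* (0.466), *Cd36* (0.176), a scavenger receptor, and *Ch25h* (0.395), a cholesterol hydroxylase. The mannose receptor gene *Mrc1* had a ratio of 0.528 (0.509 to 0.548). In resident-type macrophages 2 of 13 measured were higher and 4 lower, beside 5.4% and 5.08% of all genes there, with *Tgm2* at 7.07-fold and *Ccl22* at 0.069. Around *Arg1*, 3 of 7 measured arginine genes were higher and 0 lower: *Arg2* (20.1-fold, from 1 steady-state UMI), *Ass1* (15.4-fold, 6.54 to 47.7), which encodes argininosuccinate synthase, and the spermidine synthase gene *Srm* (2.09-fold, 1.44 to 3.15). *Nos2* had 9 UMIs on AngII and 0 at steady state. Of the 11 genes listed as paralogs of the effectors, which did not include *Rnase2a*, only *Retnlg* was measured. It was 18.2-fold higher (3.18 to 725, from 1 steady-state UMI).

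The ligands were near the limit of detection. At steady state *Il4* had 5 UMIs in 2 resident-type macrophages, 4 in 2 ILC2 and 2 in 1 cell of the mast cell or basophil class, and on AngII 3 in 2 cells of that class, with at most 3 UMIs in any other class. *Il13* had 2 UMIs in 1 resident-type macrophage and 1 in the mast cell or basophil class at steady state, and 2 in that class on AngII. *Csf2*, the gene of a growth factor that acts on macrophages, had 13 UMIs in 3 of 13 ILC2 on AngII and 3 in 3 of 8 at steady state. *Il25* was not detected in macrophages, and *Il33* had 10 UMIs in them on AngII. *Tslp*, an alarmin, was the measured member of this group, and its ratio in macrophages was 0.174 (0.124 to 0.245).

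The patterns across cell classes were last compared with those of 9984 genes, over the 13 groups of at least 20 cells (3 at steady state, 10 on AngII), as Pearson correlations of log2(CPM + 10). The groups share libraries and depth, so the values are descriptions. *Arg1* was nearest to *Pdpn* (r = 0.96), *Saa3* (0.94) and *Chil3* (0.94), and *Chil3* to *Klra2* (0.98), *C3* (0.97) and *Cxcl14* (0.95). Among the genes nearest to *Retnla* were *Igip* and *Timp2* (0.95 each), and *Ear2* was nearest to *Vma21* (0.99), *Tmem109* (0.96) and *Pdia6* (0.96), and *Il4ra* to *Prkaa1* (0.86), *Camta2* (0.85) and *Actr2* (0.83). Between *Retnla* and *Ear2* r was 0.43, whereas between *Arg1* and *Chil3* it was 0.94. Classes of fewer than 20 cells are not in these values. Among them are ILC2, with *Arg1* (691 and 592 CPM) and no *Chil3* UMI. Steady-state classical and nonclassical monocytes, with *Chil3* (907 and 465 CPM) and no *Arg1* UMI, are also left out. So are AngII nonclassical monocytes and steady-state cDC2, where *Ear2* was high. In single macrophages it was *Retnla* and *Ear2* that had the larger odds ratio.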

How the data were processed

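CD45+ cells of whole aortas were captured with the 10x Genomics 3′ v3.1 chemistry. The unit is UMI counts per gene and cell, deposited by the authors as filtered matrices. Per the study's methods and the submitters' processing notes, reads were demultiplexed (Je, bcl2fastq) and counted with Cell Ranger 3.1.0 on GRCm38.p6 with a GENCODE annotation and an added eYFP sequence. No ambient RNA was removed here. Barcodes under 300 or over 6500 genes, or over 5% mitochondrial UMIs, were removed. In each library a cell took the class with the most distinct markers of 15 lists, at least 2. Macrophages were divided by 2 further lists in the same way. No doublet caller was run, and cells with markers of another lineage were left out as an alternative.

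Levels are UMIs summed over the cells of a class, as CPM, with exact Poisson intervals. Ratios have exact conditional intervals, shares Clopper-Pearson intervals, and co-detection exact conditional odds ratios, all at 95%. A count of 0 was given a limit of 3 UMIs. For shares and co-detection each cell was thinned to 1000 UMIs without replacement, and shallower cells were left out. With 1 library per condition no test was made. The code was tested on simulated data. The pathway genes named are those with at least 50 UMIs and a 2-fold ratio, and receptor and ligand genes, and the 3 genes most like each member by correlation are given, except 1 that is not reported here. The members, lists and markers were chosen with earlier results of these data known. As alternatives, filter, gate, thinning, detection and subtraction of the level in B and T cells were varied. Leiden clusters were named by the class most of their cells had, not by their best list as first planned. Scanpy 1.11.5, Matplotlib 3.10.9, SciPy 1.17.1 and pandas 2.3.3 were run in Python 3.11.15, with NumPy 2.4.6.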

Additional observations from a re-analysis of the deposited data

How the results depend on the processing

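With 1 library per condition, replicate error is unknown, and 1331 of 2472 AngII macrophages reached 1000 UMIs. No paired analysis was possible because each condition is 1 pooled library from different animals. *Retnla* kept its lower and *Il4ra* its higher level on AngII under 11 alternatives, and *Arg1* and *Chil3* their higher level under the 10 that gave a value for them. Where settings moved a value, the cause was not tested. The lower bound of *Arg1* (154-fold) was 165 with all barcodes, 78.2 with summed marker UMIs, 50.0 without mixed cells, 139 without the top cell and 12.2 after thinning, and 112 and 91.7 without the 5 and 10 top cells (chosen after seeing the data). For *Chil3* (92.1-fold) it was 37.3 with summed UMIs, 18.3 without mixed cells, 86.5, 72.5 and 61.7 without the top 1, 5 and 10 cells and 7.66 after thinning. With Leiden clusters the steady-state counts of both genes were above 0, from cells that the gate had not called macrophages. The ratios were 142 (55.5 to 522) for *Arg1* and 40.2 (24.7 to 70.4) for *Chil3*. A bound after thinning is lower because fewer UMIs stand behind it. The *Retnla* ratio (0.112) was 0.130 with all barcodes, 0.083 with summed UMIs, 0.109 with Leiden clusters, 0.155 without mixed cells, 0.12 after thinning, 0.103 minus B and T cells and 0.125 as a mean per cell. *Ear2* (0.599) turned to 1.17 (0.959 to 1.44, an interval that includes 1) with summed UMIs and to 1.72 without the 10 top cells. It was 0.943 without 5 and 0.664 without 1, 0.515 with Leiden clusters and 0.775 without mixed cells. After thinning it was 0.732, minus B and T cells 0.522 and as a mean per cell 0.88. *Il4ra* (3.83) was 5.62 without mixed cells, 4.77, 5.24 and 5.76 without the top 1, 5 and 10 cells, 3.02 as a mean per cell and 104 minus B and T cells, which themselves held *Il4ra*. Co-detection on AngII from 2 UMIs gave odds ratios of 3.23 for *Arg1* and *Chil3*, 0.470 for *Arg1* and *Retnla*, 0.497 for *Chil3* and *Retnla*, 0 for *Chil3* and *Ear2* and 18.8 for *Retnla* and *Ear2*, and the last was 20.3 with summed UMIs. *Arg1* and *Ear2* turned to 1.11 without thinning and 1.40 at 2000 UMIs. *Chil3* and *Retnla* gave 0.707 with Leiden clusters, 0.654 without mixed cells and 0.659 at 500 UMIs, and *Chil3* and *Ear2* 0.280 without mixed cells. The ratio of *Yfp*+ to *Yfp*− cells after thinning was 0.942 for *Retnla*, 1.45 (turned) for *Ear2* and 0.407 for *Il4ra* at steady state, and 0.231 for *Chil3*, 1.18 for *Retnla*, 0.612 for *Ear2* and 1.49 for *Il4ra* on AngII. With *Yfp* from 2 UMIs it was 0.733 for steady-state *Retnla* and 0.765 for AngII *Arg1*. Pathway genes 2-fold or more higher numbered 4, not 10, both at 200 UMIs and after thinning, beside 5.01% and 12.9% of all genes at these settings.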

Other observations

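Among the 202 AngII cells with at least 1000 UMIs that took no class, *Retnla* and *Ear2* were again detected together, with an odds ratio of 10.3 (3.4 to 32.2).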
